A study of Mus musculus with 32 samples.

Results

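The 10 genes described here are the classical transcripts of striatal GABAergic interneurons: Pvalb, Pthlh, Sst, Npy, Nos1, Chodl, Calb2, Cck, Vip and Kit. They were chosen by symbol, 10 of the 54532 genes in the count table, and their identifiers were matched through GENCODE M21. All 10 passed the filter on low counts. They were followed in RNA of dissected whole striatum from 32 mice that were 6 months old, with 8 mice in each of 4 genotypes. The genotypes were wild-type (WT), Msh3-/-, zQ175 and zQ175:Msh3-/-. Males and females were equal in number (4 and 4) in 3 of the groups, and zQ175:Msh3-/- comprised 5 males with 3 females. zQ175 mice are a knock-in model of Huntington's disease in which the mouse Htt gene carries a greatly expanded CAG repeat, so the mutant protein is made in every cell that uses Htt. Msh3-/- mice come from 1 line in which Cas9 removed part of Msh3, a DNA mismatch repair gene needed for the somatic expansion of such repeats. All groups were bred as littermates on a C57BL/6J background. The comparisons asked how the zQ175 allele and the loss of Msh3 affected these transcripts, alone and together.

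Nearly all striatal neurons are GABAergic spiny projection neurons, and interneurons are a small minority that shapes their firing. Fast-spiking interneurons contain parvalbumin (Pvalb) and many of them express parathyroid hormone-like hormone (Pthlh). A separate class makes somatostatin (Sst), neuropeptide Y (Npy) and nitric oxide, the last through the neuronal synthase Nos1, and Chodl marks the Sst cells rich in Nos1. Calretinin (Calb2) marks a further class. The peptides cholecystokinin (Cck) and vasoactive intestinal peptide (Vip) mark sparse striatal interneurons but are abundant in the cortex, where Cck is also made by excitatory neurons. Kit is a receptor tyrosine kinase found on several interneuron classes. Pvalb, Calb2 and Npy are likewise used by neurons outside the striatum.

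Among the members, Sst, Npy, Cck, Vip and Pthlh encode peptides. The levels of the first 4 were positively correlated from mouse to mouse in each pair. Of these 6 pairs, 5 passed the test given with the correlations, and Sst with Cck did not (r 0.444, rho 0.437, permutation p = 0.0198 and 0.0249, adjusted p = 0.0809 and 0.0862). Pthlh went the other way, with an r of -0.526 with Sst, -0.269 with Npy, -0.2 with Cck and -0.241 with Vip. For Sst, Npy, Cck and Vip, the bases directly before the transcription start are shown as the 250 bases upstream of the RefSeq start on GRCm38.p6. A link between these sequences and the correlations was not tested. Capitals mark CGTCA or its reverse complement TGACG, the half-site of the cAMP response element, a motif bound by factors of the CREB family and first described in the somatostatin promoter.
Sst (chr16:23890845-23891094, minus strand): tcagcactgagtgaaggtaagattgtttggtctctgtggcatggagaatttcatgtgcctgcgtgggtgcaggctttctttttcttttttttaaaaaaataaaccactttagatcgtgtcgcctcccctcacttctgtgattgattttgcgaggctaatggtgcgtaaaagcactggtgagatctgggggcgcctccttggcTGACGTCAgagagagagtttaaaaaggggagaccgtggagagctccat
Npy (chr6:49822460-49822709, plus strand): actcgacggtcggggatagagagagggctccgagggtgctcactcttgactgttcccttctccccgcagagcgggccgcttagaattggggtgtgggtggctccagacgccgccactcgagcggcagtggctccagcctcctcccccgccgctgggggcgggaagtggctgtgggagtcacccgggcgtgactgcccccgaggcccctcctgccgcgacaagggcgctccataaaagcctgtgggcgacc
Cck (chr9:121495695-121495944, minus strand): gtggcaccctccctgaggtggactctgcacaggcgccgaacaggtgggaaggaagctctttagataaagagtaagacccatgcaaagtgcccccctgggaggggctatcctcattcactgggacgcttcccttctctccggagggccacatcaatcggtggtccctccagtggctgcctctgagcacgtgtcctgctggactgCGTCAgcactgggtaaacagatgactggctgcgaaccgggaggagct
Vip (chr10:5638968-5639217, plus strand): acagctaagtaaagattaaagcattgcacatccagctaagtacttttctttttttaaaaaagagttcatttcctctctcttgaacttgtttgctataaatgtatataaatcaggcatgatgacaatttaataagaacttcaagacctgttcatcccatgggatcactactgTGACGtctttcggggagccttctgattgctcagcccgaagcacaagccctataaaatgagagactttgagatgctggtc
The Sst window held the full palindrome TGACGTCA, in which half-sites on both strands overlap, starting 48 bases before the transcription start. Cck held a single half-site at 47 bases and Vip at 79 bases before the start, and Npy held none. The Pthlh window, not shown, held none either. Among the 9 members with a RefSeq window, the half-site was found in 4, the last being Nos1, at 130 bases. Of all 32851 windows of the same length, searched on both strands, 17.8% held the half-site and 1.55% held the full palindrome, and per gene, over 27025 genes, the shares were 19.8% and 1.77%. A match is a description of the letters and was not tested as a binding site.

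Depth ranged from 12359347 to 25030335 counted reads per mouse, with group medians between 15903741 and 17957804.5, and 16610 genes were tested. Members are given as counts per 1000000 reads after TMM normalization (CPM), and genes are compared with each other only in the deposited length-normalized values, which are TPM (transcripts relative to a fixed total per mouse). A gene was called when edgeR's quasi-likelihood test gave a Benjamini-Hochberg adjusted p-value under 0.05 over all genes together with a change of at least 1.2-fold. Msh3 ranged from 22.8 to 27.5 CPM in mice with the intact gene and from 10.4 to 14.2 CPM in Msh3-/- and zQ175:Msh3-/- mice. The counts are per gene, and where in Msh3 the remaining reads lie was not tested. Markers of spiny projection neurons were abundant, with a summed level of 7711 to 9456 CPM for 10 genes in wild-type mice. Markers of cortical excitatory neurons were present at a level that differed from mouse to mouse, from 176 to 878 CPM summed over 10 genes.

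In wild-type striatum Sst was the most abundant member, at 467 ± 58.3 TPM (SD, n = 8), and Chodl the least, at 1.81 ± 0.339 TPM. Npy followed at 158 ± 22.0, Cck at 93.2 ± 46.1 and Pvalb at 88.0 ± 24.1 TPM. Kit and Nos1 lay at 21.8 ± 1.97 and 20.9 ± 0.855 TPM. Below them were Pthlh at 9.33 ± 2.00, Calb2 at 4.97 ± 1.92 and Vip at 2.01 ± 1.13 TPM. The ranges of the wild-type mice did not overlap between Sst and Npy, between Pvalb and Kit, or between Nos1 and Pthlh. All other neighbours in this order had overlapping ranges. The order of the group means was the same in Msh3-/- and zQ175 mice, and in zQ175:Msh3-/- mice Cck stood above Npy.

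The members differed widely in how stable they were between mice. Over all 32 mice the highest level of Vip was 10.4 times the lowest, of Cck 8.90 times, of Calb2 5.44 times and of Pvalb 3.80 times. For Kit this ratio was 1.41, for Nos1 1.44, for Sst 1.46 and for Npy 1.58. The biological coefficient of variation within genotypes was 0.550 for Vip, 0.519 for Cck, 0.355 for Calb2 and 0.301 for Pvalb, against 0.0985 for a typical gene. It was 0.0616 for Kit and 0.0641 for Nos1. The error of counting does not cover the spread of Vip, which had 10 to 108 reads per mouse: counting alone gives a coefficient of variation of 18.2% to 24.0% in the 4 genotypes, and 56.0% to 67.5% was observed. For Chodl, with 20 to 51 reads, the observed 13.6% to 17.7% was about that of counting, 16.8% to 17.7%, so smaller differences between mice were not detectable at this depth.

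**Figure D1:**
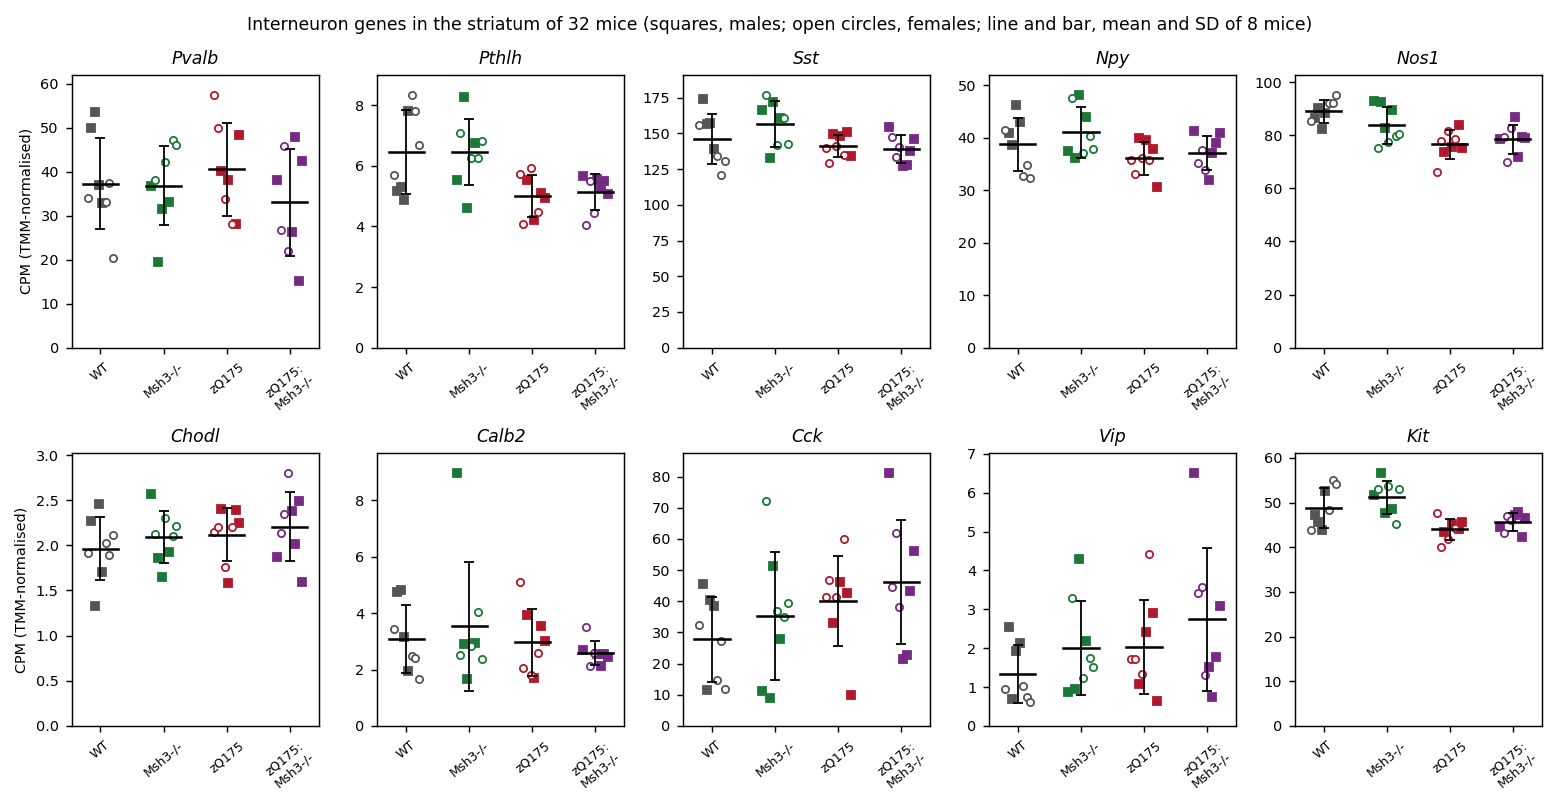
Level of each interneuron gene (y axis, CPM, from 0) in every mouse by genotype (x axis); squares are males, open circles females, the line and bar the mean and SD of 8 mice. Pthlh lies lower in the zQ175 and zQ175:Msh3-/- groups, at 4.04 to 5.94 CPM against 4.62 to 8.34 CPM in the other groups, while Cck and Vip scatter widely in all groups.

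Between zQ175 and wild-type mice 1 of the 10 interneuron genes was called, and it was lower: Pthlh. Of all genes tested, 11.6% were called, 4.7% higher and 6.89% lower in zQ175, so the share among the members was close to the background. The median log2 fold change of the members was -0.06, against 0.01 over all genes. On the Msh3-/- background, where zQ175:Msh3-/- mice were compared with Msh3-/- mice and no mouse is shared with the first comparison, Pthlh was again the 1 member called and was again lower. The background was 10.6% of genes called, 4.68% higher and 5.96% lower. The median of the members there was -0.15 and that of all genes 0.01. In bulk tissue, fewer cells of a type and less RNA per cell cannot be told apart.

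Pthlh (ENSMUSG00000048776, chr6:147252101-147264183, minus strand, GRCm38), which encodes a secreted peptide related to parathyroid hormone, lay between 4.87 and 8.34 CPM in wild-type mice, with a median of 6.18. In zQ175 mice it lay between 4.09 and 5.94 CPM, with a median of 5.02. All 8 zQ175 mice were below the wild-type median, and 3 of them were below every wild-type mouse. The log2 fold change was -0.36 (standard error 0.115, edgeR quasi-likelihood adjusted p = 0.0167), and an exact two-sided permutation test of log2 CPM gave p = 0.0202. In Msh3-/- mice Pthlh ranged from 4.62 to 8.27 CPM with a median of 6.51, and in zQ175:Msh3-/- mice from 4.04 to 5.66 CPM with a median of 5.40. Again all 8 mice with the zQ175 allele were below the median of their controls, and 6 Msh3-/- mice were above every zQ175:Msh3-/- mouse. There the log2 fold change was -0.33 (standard error 0.116, edgeR quasi-likelihood adjusted p = 0.0335, exact permutation p = 0.0109). Both calls are near the threshold: limma on log2 TPM gave adjusted p-values of 0.0557 to 0.0850 in the first comparison and 0.103 to 0.151 in the second. Leaving out wild-type female 2 raised the first to 0.0556, and leaving out Msh3-/- female 1, male 2, male 4 or female 4, or zQ175:Msh3-/- female 1, female 3 or male 5, raised the second to between 0.0501 and 0.0984.

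Pvalb (chr15:78191114-78206400, minus strand), a calcium-binding protein of fast-spiking cells, was not called in either zQ175 comparison. It ranged from 20.4 to 53.6 CPM in wild-type and from 28.1 to 57.5 CPM in zQ175 mice, with medians of 35.6 and 39.1. These ranges overlapped almost wholly, and the log2 fold change was 0.11 with a 95% interval of -0.33 to 0.55. Without Msh3 the ranges were 19.6 to 47.3 and 15.1 to 47.8 CPM, and the log2 fold change was -0.15 (interval -0.60 to 0.30). This last interval includes the Pthlh value of -0.33 in the same comparison. Across mice, with genotype means removed, Pvalb and Pthlh had an r of -0.15.

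Among the markers of the Sst class no difference reached 1.2-fold in either zQ175 comparison, and the adjusted p was under 0.05 for Nos1 against wild-type and for Sst on the Msh3-/- background. Nos1 (chr5:117781032-117958840, plus strand), the enzyme that makes nitric oxide in neurons, had the most regular difference. It ranged from 82.2 to 95.2 CPM in wild-type mice (median 89.4) and from 66.1 to 83.6 CPM in zQ175 mice (median 76.6). Of the zQ175 mice, 7 were below every wild-type mouse. The log2 fold change was -0.22 (standard error 0.0474, edgeR quasi-likelihood adjusted p = 0.000571), and the exact permutation test gave p = 0.000311. The fold of 0.860 did not reach the 1.2-fold threshold, so Nos1 was not called. Without Msh3, Nos1 ranged from 75.2 to 92.9 CPM in Msh3-/- and from 69.9 to 86.9 CPM in zQ175:Msh3-/- mice. The log2 fold change was -0.10 (adjusted p = 0.149 by the same test). The difference between these effects, tested as an interaction, was 0.12 on the log2 scale (edgeR quasi-likelihood adjusted p = 0.999). Nos1 overlaps Gm37028 on its own strand and Gm26995 on the other, and reads of the 3 genes may be shared.

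Sst (chr16:23889573-23890958, minus strand), the inhibitory peptide that names the class, ranged from 120.8 to 174.0 CPM in wild-type and from 129.5 to 150.9 CPM in zQ175 mice. The zQ175 values lay within the wild-type range, and the log2 fold change was -0.05 (interval -0.18 to 0.08). Between Msh3-/- mice, at 132.6 to 177.0 CPM, and zQ175:Msh3-/- mice, at 127.1 to 154.7 CPM, the log2 fold change was -0.17 (standard error 0.0626, edgeR quasi-likelihood adjusted p = 0.0472, exact permutation p = 0.0227). All 8 zQ175:Msh3-/- mice were below the Msh3-/- median, but the change was under 1.2-fold, and 10 of the 16 refits without a single mouse put the adjusted p above 0.05, at up to 0.107. With limma on log2(TPM + 0.1) the Sst difference was -0.10 (adjusted p = 0.291). Npy (chr6:49822710-49829507, plus strand), which Sst cells release with somatostatin, ranged from 32.2 to 46.3 CPM in wild-type and from 30.6 to 39.9 CPM in zQ175 mice. Its log2 fold change was -0.10 (adjusted p = 0.342 by edgeR's quasi-likelihood test) and -0.14 on the Msh3-/- background (adjusted p = 0.175). Chodl (chr16:78930948-78951733, plus strand), a membrane protein of unclear function, had log2 fold changes of 0.10 and 0.07, with a standard error of 0.126 and 0.127.

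Kit (chr5:75574916-75656722, plus strand), the receptor of stem cell factor, was lower in both comparisons by less than 1.2-fold. It ranged from 43.9 to 55.1 CPM in wild-type and from 40.1 to 47.6 CPM in zQ175 mice, and all 8 zQ175 mice were below the wild-type median. The log2 fold change was -0.15 (standard error 0.0479, edgeR quasi-likelihood adjusted p = 0.0194, exact permutation p = 0.0179). Without wild-type female 3 or female 4 the adjusted p was 0.0551 and 0.0561. In Msh3-/- mice Kit ranged from 45.2 to 56.6 CPM and in zQ175:Msh3-/- mice from 42.4 to 47.8 CPM. Here the fold change was -0.17 on the log2 scale (standard error 0.048, edgeR quasi-likelihood adjusted p = 0.00957, exact permutation p = 0.00389). limma on log2(TPM + 0.1) gave smaller differences, -0.06 (adjusted p = 0.445) and -0.10 (adjusted p = 0.193). Mast cells also express Kit, but the 5 mast cell markers reached at most 0.0825 CPM in any mouse and none passed the filter.

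Calb2, Cck and Vip had the widest intervals. Calb2 (chr8:110137502-110168210, minus strand), a calcium-binding protein, ranged from 1.65 to 4.84 CPM in wild-type and from 1.70 to 5.12 CPM in zQ175 mice, with a median of 2.81 in both. Its log2 fold change was -0.07 (interval -0.62 to 0.48). Between zQ175:Msh3-/- and Msh3-/- mice it was -0.45 (interval -1.01 to 0.12), and -0.12 without Msh3-/- male 1, the mouse with the highest Calb2 of all, at 8.97 CPM against 1.65 to 4.06 CPM in the other Msh3-/- mice. Male 1 also had the highest septal marker score of its group, 2.975. Cck (chr9:121489824-121495694, minus strand) had a median of 29.8 CPM in wild-type (11.7 to 45.5) and 42.0 CPM in zQ175 mice (10.0 to 60.1). The log2 fold change was 0.52, with an interval of -0.24 to 1.28. Vip (chr10:5639218-5647617, plus strand) had a median of 0.998 CPM in wild-type (0.628 to 2.54) and 1.73 CPM in zQ175 mice (0.635 to 4.41), and its log2 fold change was 0.56 with an interval of -0.31 to 1.43. Between zQ175:Msh3-/- and Msh3-/- mice, the log2 fold changes of Cck and Vip were 0.40 and 0.48. None of these was called, and the group ranges overlapped in every case.

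**Figure D2:**
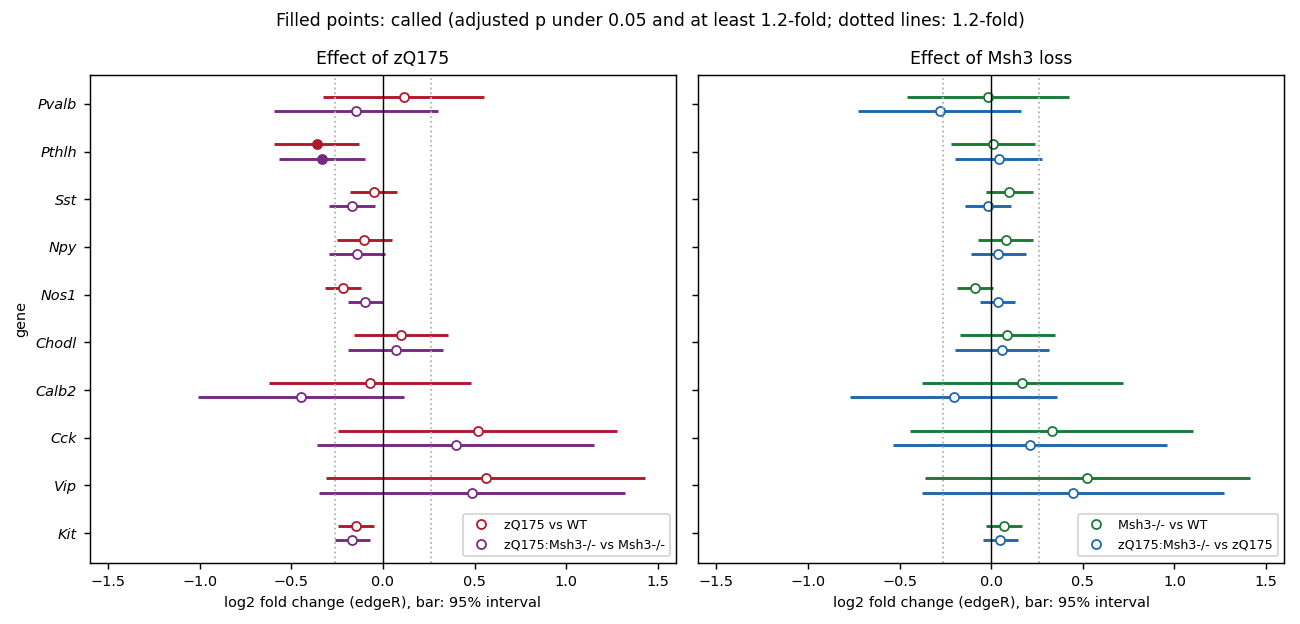
edgeR log2 fold change (x axis) of each interneuron gene (rows) for the zQ175 allele, left, and for loss of Msh3, right, on both backgrounds, with 95% intervals. Filled points were called, and they are Pthlh in both zQ175 comparisons; the intervals of Calb2, Cck and Vip are several times wider than those of Nos1 and Kit.

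Loss of Msh3 was accompanied by no called interneuron gene. Between Msh3-/- and wild-type mice 0 of 10 members were called by edgeR, 0 had an unadjusted p-value under 0.05, and DESeq2 and limma also called 0. The same counts held between zQ175:Msh3-/- and zQ175 mice. Of all genes, 0.00602% were called in each of these comparisons, which is 1 gene, Msh3 itself. These comparisons share mice with the zQ175 comparisons. Pthlh differed by 0.01 on the log2 scale without the zQ175 allele (interval -0.22 to 0.24) and by 0.04 with it (interval -0.20 to 0.28). Both intervals end below 0.36, the estimated size of the difference between zQ175 and wild-type mice. That difference had its own interval of -0.60 to -0.13, so these intervals do not bound an effect of Msh3 loss below that of zQ175. The largest member differences were those of Vip, 0.52 and 0.45, with intervals of -0.36 to 1.41 and -0.38 to 1.27. The interaction, which asks whether the zQ175 effect depends on Msh3, gave 0% called over all genes by edgeR, with 737 at an unadjusted p-value under 0.05 and 0 called by DESeq2 or limma. It gave 0 members called by edgeR, DESeq2 or limma and 0 members with an unadjusted p-value under 0.05. For Pthlh it was 0.03 on the log2 scale (interval -0.30 to 0.36).

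Cck and Vip varied with the level of cortical markers in each sample. The cortical marker score is the mean log2 CPM of 10 genes of cortical excitatory neurons, such as Slc17a7 and Tbr1. With genotype means removed, Cck had an r of 0.987 and a rho of 0.978 with this score over 32 mice (permutation p = 1e-05 each, the smallest that the permutations can give, adjusted p = 0.00015 over 30 relations). Within single genotypes r lay between 0.982 and 0.994, and without the 2 mice farthest from the median score it was 0.982. For Vip r was 0.823 and rho 0.862 (permutation p = 1e-05 each, adjusted p = 0.00015), with 0.786 to 0.902 within genotypes and 0.802 without those mice. Npy had an r of 0.694 (permutation p = 6e-05, adjusted p = 0.00045) and a rho of 0.675 (permutation p = 0.00014, adjusted p = 0.00105), and 0.633 without the same mice. Sst had an r of 0.391 and Nos1 one of -0.438, neither with an adjusted p under 0.05. The score had a gap between 3.393 and 3.87, with 6 mice below it (3 wild-type, 2 Msh3-/- and 1 zQ175). Over the 26 mice above the gap, r was 0.967 for Cck, 0.814 for Vip and 0.531 for Npy, given as a description. Pvalb, Pthlh, Chodl, Calb2 and Kit had r between -0.287 and 0.162.

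**Figure D3:**
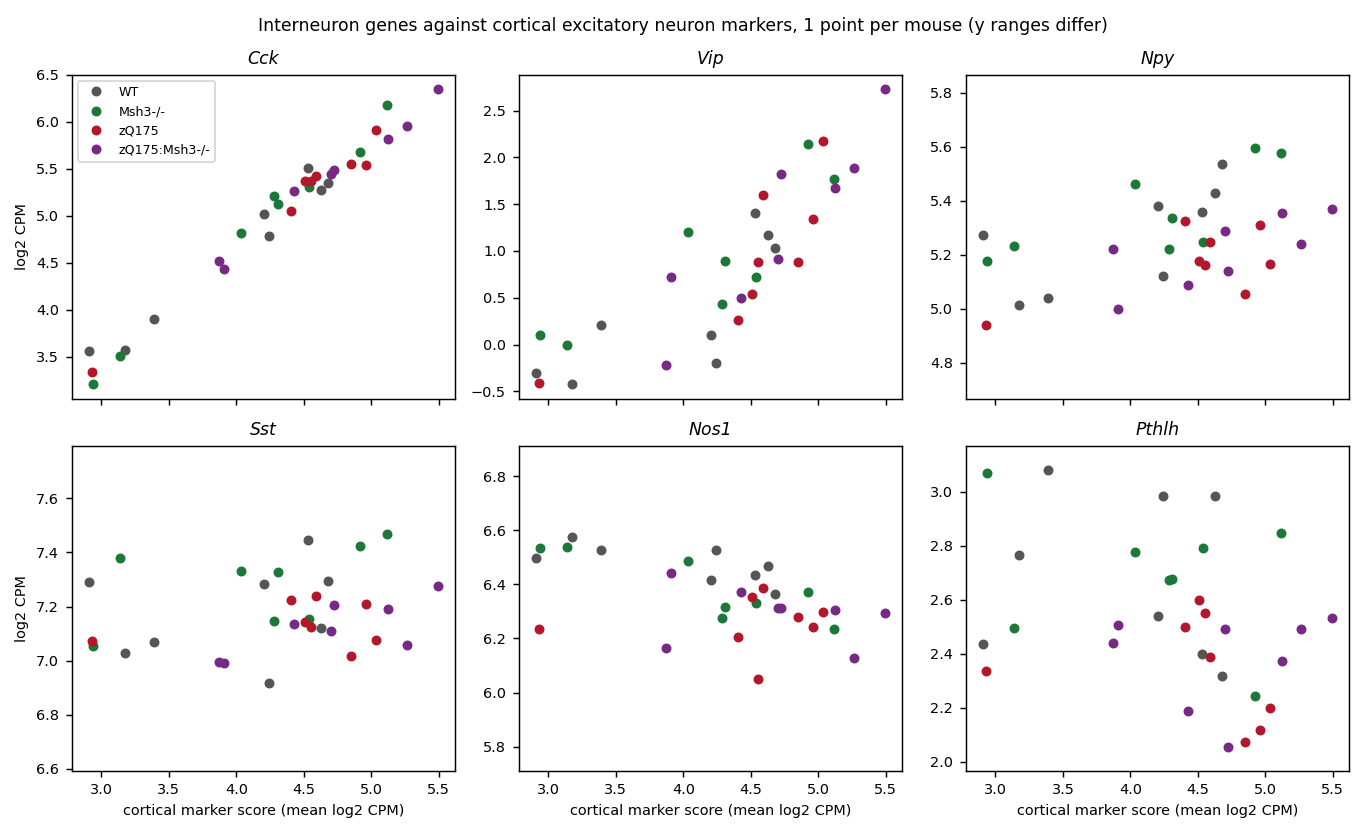
log2 CPM of 6 interneuron genes (y axes, with different ranges) against the cortical marker score (x axis, mean log2 CPM of 10 genes), 1 point per mouse, coloured by genotype. Cck lies close to a single line in all genotypes, Vip and Npy rise with the score more loosely, and Pthlh shows no such trend.

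The mean cortical score itself was 4.479 in zQ175 and 3.97 in wild-type mice, a difference of 0.51 (exact permutation p = 0.143) and 4.688 in zQ175:Msh3-/- and 4.16 in Msh3-/- mice, a difference of 0.53 (exact permutation p = 0.152), both within the spread between mice. With the score as a term in the edgeR model, the log2 fold change of Cck between zQ175 and wild-type mice went from 0.52 to -0.03 and that of Vip from 0.56 to 0.01. Between zQ175:Msh3-/- and Msh3-/- mice they became -0.13 and -0.14. Cck was nearly collinear with the score (r 0.987, genotype means removed), so little of its variation was left in this model. The source of the Cck and Vip differences was not tested. Pthlh was still called in the first comparison, at -0.33 (adjusted p = 0.0345 by edgeR's quasi-likelihood test), and was not in the second, at -0.29 (adjusted p = 0.0734). Npy moved the other way: with the score in the model it was -0.18 (adjusted p = 0.0158) and -0.22 (adjusted p = 0.0032), still under 1.2-fold. Nos1 was -0.18 in the first comparison (adjusted p = 0.00186) and Kit -0.13 (adjusted p = 0.0438). In the second comparison Nos1 was -0.06 (adjusted p = 0.376), Kit -0.15 (adjusted p = 0.0252) and Sst -0.21 (adjusted p = 0.0114), all by the same edgeR test. In females alone Cck and Vip were called higher in zQ175, with log2 fold changes of 1.16 and 1.43 (edgeR quasi-likelihood adjusted p = 0.0406 and 0.0422). The cortical score of those females was 4.74 ± 0.250 (SD, n = 4) against 3.75 ± 0.551 in wild-type females, and in males it was 4.22 ± 0.890 against 4.19 ± 0.854. The difference of the zQ175 effect between females and males was 1.21 for Cck and 1.51 for Vip on the log2 scale (edgeR quasi-likelihood adjusted p = 0.982 for each).

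Calb2 varied with other markers. Its r with the score of 6 septal markers was 0.732 and rho 0.712 (permutation p = 3e-05 each, adjusted p = 0.0003), 0.752 without the 2 farthest mice, and 0.300 to 0.865 within genotypes. With the score of 7 markers of the globus pallidus, its r was 0.520 (permutation p = 0.00358, adjusted p = 0.0215) and rho 0.394 (permutation p = 0.0261, adjusted p = 0.112), and r fell to 0.347 without the 2 farthest mice, so that relation rests in part on them. Chodl had an r of 0.364 with the septal score (permutation p = 0.0629, adjusted p = 0.18) and a rho of 0.527 (permutation p = 0.00468, adjusted p = 0.0281). Pvalb, also made by neurons of the globus pallidus, had an r of 0.395 with the pallidal score (permutation p = 0.0407, adjusted p = 0.139). The pallidal score was lower with the zQ175 allele, by -0.16 on the log2 scale against wild-type (exact permutation p = 0.025) and by -0.23 against Msh3-/- mice (exact permutation p = 0.00264). Lhx6, Sox6 and Nkx2-1 in that list are also interneuron genes. Single genes of the list ran from -0.56 (Gbx1) to 0.10 (Npas1) against wild-type. On the Msh3-/- background they ran from -0.67 (Gbx1) to -0.02 (Foxp2). The score of 6 cholinergic interneuron markers was also lower, by -0.232 and -0.335 (exact permutation p = 0.00186 and 0.000932). Whether the pallidal score measures pallidal RNA was not tested. The part of cortical, septal and pallidal RNA in the levels of single members was not tested further.

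Among the 45 pairs of members, 9 had an adjusted p under 0.05 for Pearson's r. Sst and Npy, made by the same striatal cells, had an r of 0.711 (rho 0.737, permutation p = 0.0001 and 6e-05, adjusted p = 0.0015 and 0.00135), 0.538 to 0.838 within genotypes and 0.730 without the 2 mice farthest in Sst. Given the cortical score, this partial r was still 0.664. Npy and Cck had an r of 0.693 (rho 0.677, permutation p = 5e-05 and 0.00022, adjusted p = 0.00112 and 0.00225), and the partial r was 0.0719. For Cck and Vip, r was 0.810 (rho 0.868, permutation p = 1e-05 each, adjusted p = 0.00045), and the partial r was -0.0295. The partial r was 0.389 for Sst with Cck, 0.396 for Sst with Vip and 0.177 for Npy with Vip. Cck itself was nearly collinear with the score, so that little of its variation is left once the score is held constant, and differences between these partial values were not tested.

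No pair of Nos1 or Chodl with the peptides of their own class had an adjusted p under 0.05. Nos1 had an r of -0.188 with Sst, -0.403 with Npy (rho -0.425, permutation p = 0.0258 and 0.0214, adjusted p = 0.0968 and 0.0862) and -0.0318 with Chodl, and Chodl had -0.0753 with Sst. Nos1 went against Pvalb, with an r of -0.618 (rho -0.643, permutation p = 0.00026 and 0.00014, adjusted p = 0.00234 and 0.0021), -0.782 to -0.432 within genotypes and -0.628 without the 2 mice farthest in Pvalb. The low read number of Chodl limits any such relation. Pthlh and Kit went together, with an r of 0.554 (rho 0.521, permutation p = 0.0059 and 0.00785, adjusted p = 0.0332 and 0.0392), 0.476 without the 2 mice farthest in Pthlh. Both went against Sst, Pthlh with an r of -0.526 (rho -0.445, permutation p = 0.00809 and 0.0241, adjusted p = 0.0404 and 0.0862) and Kit with one of -0.574 (rho -0.605, permutation p = 0.00433 and 0.00196, adjusted p = 0.0278 and 0.0147). Without the 2 farthest mice these were -0.470 and -0.523. Within single genotypes r ran from -0.844 to 0.377 for Pthlh with Sst and from -0.801 to 0.265 for Kit with Sst. Neither relation kept its sign in every genotype. Partial values given the cortical score were 0.535, -0.503 and -0.537. The remaining pairs of the 9 were Vip with Npy, at an r of 0.643 (rho 0.647, permutation p = 0.00014 and 0.00025, adjusted p = 0.00157 and 0.00225), and Vip with Sst, at 0.529 (rho 0.522, permutation p = 0.00213 and 0.00363, adjusted p = 0.016 and 0.0233).

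**Figure D4:**
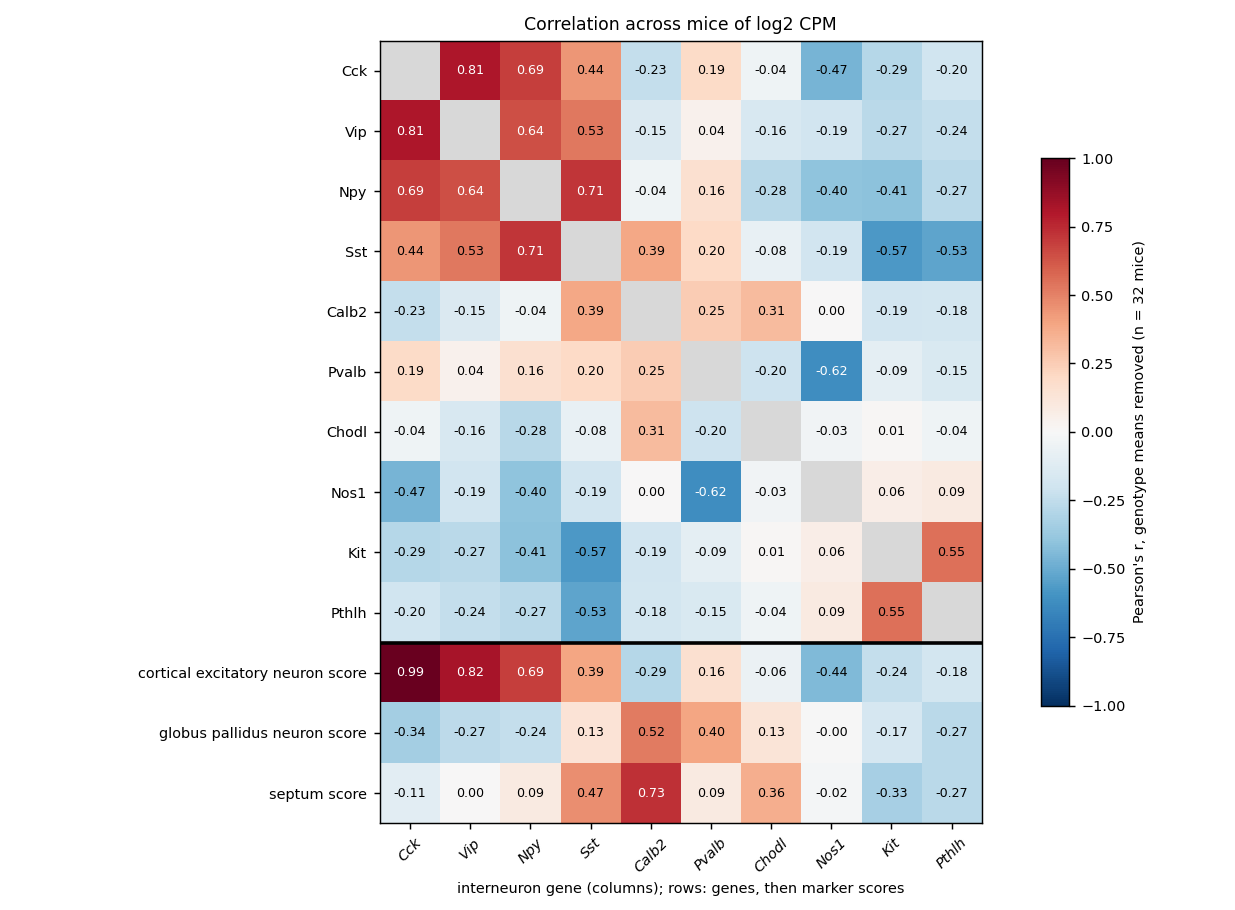
Pearson's r across 32 mice of log2 CPM with genotype means removed (colour, from -1 to 1) between the interneuron genes (columns and upper rows) and with 3 marker scores (lower rows). Cck, Vip, Npy and Sst form a block of positive values, the cortical score row reaches 0.99 for Cck, and Pvalb with Nos1 stands at -0.62.

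The genes most like each member, by r over 32 mice with genotype means removed, separated the members further. For Pvalb they were Nefh (0.925), Vamp1 (0.917) and Lgi2 (0.911). Cck was closest to Slc17a7 (0.988), Tbr1 (0.986) and Rtn4rl2 (0.983), of which Slc17a7 and Tbr1 are in the cortical list, and Vip to Dgkz (0.930), Nptxr (0.924) and Mpped1 (0.916). Sst was closest to Gabra5 (0.838), Syn2 (0.827) and Tubb2a (0.822), and Npy to Bok (0.822), Tuba8 (0.798) and Efhd2 (0.784). For Nos1, Sptb (0.826) and Cul9 (0.769) were among the closest. Calb2 was closest to Wdr6 (0.795), Hap1 (0.794) and Baiap3 (0.784). The remaining members had looser neighbours: Mall (0.715), Gm19410 (0.673) and Slc41a1 (0.643) for Pthlh, Tenm2 (0.732), Zfp706 (0.706) and Gm19410 (0.700) for Kit, and Tmem212 (0.725), Fbln7 (0.670) and Cfap157 (0.651) for Chodl. These are the best of all genes tested and are given as a description.

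Of 9 genes for GABA synthesis, transport and forebrain GABAergic identity, 1 was called lower in each zQ175 comparison, Dlx6, a homeobox factor of the GABAergic lineage, at -0.31 (adjusted p = 0.000351) and -0.30 (adjusted p = 0.000665, both by edgeR's quasi-likelihood test). Of all genes tested, 11.6% and 10.6% were called in these comparisons, so 1 of 9 was close to the background. The list medians were 0.04 and -0.05. Gad1 and Gad2, which make GABA, had log2 fold changes of -0.02 and -0.03 against wild-type and -0.07 and -0.09 on the Msh3-/- background, and spiny projection neurons use the same genes.

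Between zQ175 and wild-type mice 11.6% of all genes were called. Of 22 further genes of the interneuron lineage and classes, 2 were called lower there and 0 higher, with a median of -0.05. They were Rbp4, a retinol carrier, at -0.54 (adjusted p = 2.8e-06), and Tacr1, the substance P receptor, at -0.33 (adjusted p = 7.39e-05). In the zQ175:Msh3-/- comparison, where 10.6% of all genes were called, 3 were called lower and 2 higher, with a median of -0.06. Rbp4 was lower there too, at -0.51 (adjusted p = 1.07e-05), with Th, the dopamine-synthesis enzyme, at -0.43 (adjusted p = 0.00468) and the lineage factor Nkx2-1 at -0.34 (adjusted p = 0.0239). Eya1 was higher at 0.38 (adjusted p = 0.00218), and Satb1, a factor also used by cortical neurons, at 0.51 (adjusted p = 0.0497). With the cortical score in the model, Satb1 was under 1.2-fold (0.22), as did Tacr1 in the first comparison (-0.26), and Nkx2-1 lost its adjusted p (0.0776). Lhx6, the factor that defines the lineage of Pvalb and Sst cells, was at -0.12 and -0.14 (adjusted p = 0.214 and 0.138), not called. These adjusted p-values are from edgeR's quasi-likelihood test.

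The receptors and partners of the members' signals were 18 genes. Between zQ175 and wild-type mice, where 11.6% of all genes were called, 1 of them was called. Kitl, the ligand of Kit, was lower with 33.6 ± 3.22 against 44.4 ± 4.32 CPM (SD, n = 8). Its log2 fold change was -0.40 (adjusted p = 3.08e-05 by edgeR's quasi-likelihood test). The list median was -0.03. In the zQ175:Msh3-/- comparison, where 10.6% of all genes were called, 3 were called higher and 3 lower, with a median of -0.0047. Kitl was lower again, with 34.2 ± 3.08 against 41.3 ± 5.06 CPM and a log2 fold change of -0.27 (adjusted p = 0.00377). Among the receptors of Npy, Npy1r was higher at 0.50 (adjusted p = 2.92e-05) and Npy2r lower at -0.62 (adjusted p = 0.000318). Among those of somatostatin, Sstr1 and Sstr3 were higher, at 0.66 (adjusted p = 0.0119) and 0.84 (adjusted p = 0.0347), and Sstr5 lower, at -0.67 (adjusted p = 0.00844), all by the same edgeR test. Each of the 6 kept its call with the cortical score in the model, where Sstr3 was 0.40 and Sstr1 0.39. Against wild-type, the 5 receptors other than Kitl had log2 fold changes of the same sign in zQ175 mice, -0.27 to 0.56, of which Npy1r, at 0.26, had the smallest adjusted p (0.020) and was just under 1.2-fold.

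Other neurons of the tissue gave the scale for these values. Of all genes tested, 11.6% were called against wild-type and 10.6% on the Msh3-/- background. Of 10 spiny projection neuron markers, 9 were called lower in each zQ175 comparison, with medians of -0.81 and -0.79. Penk, the precursor of enkephalin, was at -1.32 (adjusted p = 2.03e-19) and -1.36 (adjusted p = 1.94e-19 by edgeR's quasi-likelihood test). Of 6 markers of cholinergic interneurons, the striatal interneurons that are not GABAergic, 2 (Chat and Slc5a7) were called lower against wild-type and 6 of 6 on the Msh3-/- background, with medians of -0.23 and -0.34. Chat, which makes acetylcholine, was at -0.27 (adjusted p = 0.00264) and -0.32 (adjusted p = 0.000674), and under 1.2-fold with the cortical score in the model (-0.20 and -0.24). In that model Slc5a7 was not called against wild-type either (-0.25), and on the Msh3-/- background 2 of the 6, Slc18a3 (-0.38) and Slc5a7 (-0.30), were called. Of the markers of other tissue, Cux2 was the 1 of 10 cortical genes called (higher against wild-type, 0.45, adjusted p = 0.0487), and on the Msh3-/- background 2 of 7 pallidal genes (Nkx2-1 and Gbx1, lower), 2 of 6 septal genes (Trpc4 higher, Zic1 lower) and 1 of 6 thalamic genes (Prkcd, lower) were called. In the first comparison 1 thalamic gene, Lef1, was called lower, and 0 pallidal and septal genes were called by edgeR. Choroid plexus markers, 0 of 5 called in each, ranged from 32.5 to 2990 CPM summed over the list. None of these lists had a called gene in the comparisons of Msh3 loss.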

How the data were processed

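The authors dissected striata of 32 mice, made libraries from polyA-selected RNA and sequenced them as paired-end reads. They deposited whole-number counts per gene, without normalization, and a table of length-normalized values. The deposited table is named FPKM, but each of its columns adds up to 1000000, and its values were therefore read as TPM. The submitters' processing notes name GRCm38 (p6). The aligner, the counting program and its strand setting are not given in the sources used here. Columns were matched to mice by mouse number, and the 2 tables matched for all 32 mice. No mice of 1 genotype agreed within sampling noise (the smallest chi-square over its degrees of freedom was 4.26).

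The deposited counts were fitted in edgeR 4.0.16 (R 4.3.3, TMM, filter on low counts by genotype, robust quasi-likelihood fit, 1 model of the 4 genotypes). DESeq2 1.42.0, the tool of the study's methods, and limma 3.58.1 on log2(TPM + 0.1) or log2(TPM + 1) were alternatives, as were those listed under the dependence on processing. Differences from limma refer to that scale, pseudocount included. Single members were compared by exact permutation among 12870 arrangements of 8 mice against 8 (smallest p 0.000155, 40 tests, unadjusted). Correlations used log2 CPM (prior count 2) with genotype means removed and 100000 permutations within genotype. In counts simulated for 16336 genes, with 200 changed 1.5-fold between wild-type and zQ175 mice, edgeR recovered 90% with 2 false calls. The changed genes were drawn from those above a minimum mean count in wild-type mice, and smaller changes were not simulated. Permutation tests ran in scipy 1.17.1 with numpy 2.4.6 under Python 3.11.15, tables in pandas 2.3.3 and plots in matplotlib 3.10.9.

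The members and lists were chosen with earlier results of these data known. Named in the text are all members, called genes of the GABA, lineage and receptor lists (at most 6 of smallest adjusted p), and the 3 genes most like each member, of which 1 gene is not reported here. Gad1, Gad2, Lhx6 and the named markers of other cells were chosen after their values were seen. The motif search, the test of the sex difference, partial correlations, list genes with the cortical score and the mice above the score gap were added after seeing the data.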

Additional observations from a re-analysis of the deposited data

Results flagged for a closer look

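Dixon's test was run on log2 values in 44 sets of 8 mice (10 members and the total count per mouse in 4 genotypes). Of these sets, 2 held a mouse far from the rest, where chance gives about 2.2. The lowest Pvalb of the Msh3-/- mice, male 2, was 19.6 CPM against 31.4 to 47.3 CPM in the others, a gap of 0.536 of the range. The lowest Cck of the zQ175 mice, male 4, was 10.0 CPM against 33.0 to 60.1 CPM, a gap of 0.664 of the range. That mouse also had the lowest cortical score (2.93) and the lowest Vip (0.635 CPM) of its group. Msh3-/- male 2 likewise had the lowest cortical score (2.94) of its group.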

How the results depend on the processing

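The count of interneuron genes called was 1 in each zQ175 comparison, Pthlh. Against wild-type it was 0 with limma on log2(TPM + 0.1), on log2(TPM + 1) and without a filter, in males alone, with glmTreat against 1.2-fold and at 1.5-fold. It was 3 in females alone (Pthlh, Cck and Vip, with 10.9% of all genes called). It was also 3 by adjusted p alone (Pthlh, Nos1 and Kit, with 26.5% of all genes). Without single mice it was 0 to 1, and 0 without wild-type female 2. On the Msh3-/- background it was 0 under the same 3 limma settings, in males alone, in females alone (Pthlh -0.48, adjusted p = 0.0596 by edgeR), with glmTreat, at 1.5-fold, with the cortical score and with the replicate block. By adjusted p alone it was 3 (Pthlh, Sst and Kit, with 24.1% of all genes). Without single mice it was 0 to 1, and 0 without Msh3-/- female 1, male 2, male 4 or female 4, or zQ175:Msh3-/- female 1, female 3 or male 5. DESeq2, RLE size factors, both other filters, sex in the model and the groups of the comparison alone kept 1 in each. The counts for Msh3 loss and the interaction were 0 throughout, and the groups alone give no interaction.

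Replicate numbers run within each sex, so same-numbered mice were of the same sex, while other pairs included both sexes. What else mice of 1 replicate number share is not given in the sources used here. Over 45 same-numbered pairs of different genotype, deviations correlated by -0.147 to 0.333 (median 0.0509, other pairs -0.0257), and 5 of 32 mice matched a same-numbered mouse best. With sex and number together as a block, 1 member was called against wild-type (Pthlh, -0.35, adjusted p = 0.0325) and 0 on the Msh3-/- background (Pthlh, -0.32, adjusted p = 0.0804, edgeR). Of 890 single-gene alternatives, 823 kept direction and side of the threshold, 17 lost and 6 gained a call, 44 uncalled values changed sign, and 0 called values did. The cause of these shifts was not tested. Over all genes, counts of 1925 and 1768 became 641 and 541 with glmTreat, 538 and 503 at 1.5-fold and 4398 and 4002 by adjusted p alone, with 1180 in males alone (against wild-type) and 1067 in females alone (on the Msh3-/- background). Depth limits Chodl, Calb2 and Vip, with as few as 20, 20 and 10 reads, though counting does not cover the spread of Vip.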
